A study of Rattus norvegicus with 18 samples.

Results

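Ins1 (ENSRNOG00000012052) and Ins2 (ENSRNOG00000020405), the insulin genes of the rat, were followed through 18 RNA sequencing libraries of beta cells. They are 2 of the 27654 genes in the deposited count table and were chosen by their Ensembl IDs. Islets of old and of young rats were kept overnight in RPMI1640 medium with 11.1 mM glucose and 10% serum, and all were exposed to 10 micromolar EdU, a thymidine analogue that is built into newly made DNA. The cells were then sorted into replicating and quiescent beta cells. Each of 9 islet batches pooled 2 rats and gave a sample of each kind, so that there were 4 libraries each of quiescent and replicative cells from old islets and 5 of each from young islets. The labels call the cell type pancreatic islets, and only the series text names beta cells. The sources used here do not give the strain, sex or age in weeks of the rats, how the sort was gated, or how many cells went into a library.

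Insulin is the glucose-lowering hormone of the beta cell. It is made as preproinsulin, enters the endoplasmic reticulum, folds there, and is cleaved into insulin and C-peptide in the secretory granule. Rats and mice carry a pair of insulin genes where most mammals have one. Ins2 corresponds to the ancestral gene, and Ins1 arose from it by reinsertion of a transcribed copy that kept part of the promoter. Both are transcribed in beta cells under transcription factors such as PDX1, NEUROD1 and MAFA, and their products are both active hormones.

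The start regions of the genes are shown because the results turn on how far the levels of Ins1 and Ins2 moved together and how far they moved apart. The lines give the 250 bases before the start of each gene, 5′ to 3′ in the direction of transcription, from RefSeq's promoter table for build GRCr8 (the counts were made on another build, rn6). Ins1 stands at chr1:261185869-261186118 on the plus strand and Ins2 at chr1:207273806-207274055 on the minus strand. Capitals mark GCCATCTG, TGACG and TATAAA.

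Ins1: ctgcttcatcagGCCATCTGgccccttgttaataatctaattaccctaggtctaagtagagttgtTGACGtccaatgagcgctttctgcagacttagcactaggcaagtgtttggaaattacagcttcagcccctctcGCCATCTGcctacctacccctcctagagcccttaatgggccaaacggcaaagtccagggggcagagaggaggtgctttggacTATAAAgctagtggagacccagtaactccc

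Ins2: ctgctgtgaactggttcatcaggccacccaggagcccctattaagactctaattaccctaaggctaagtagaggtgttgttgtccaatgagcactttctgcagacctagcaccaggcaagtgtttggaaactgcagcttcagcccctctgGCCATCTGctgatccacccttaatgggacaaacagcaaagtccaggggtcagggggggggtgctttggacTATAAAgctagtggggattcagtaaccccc

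In a global alignment, 205 of the 238 aligned base pairs were identical (86.1%), with 24 gap positions. GCCATCTG, the E box letters that NEUROD1 and its partners are known to bind in insulin promoters, occurred in Ins1 at 238 and 112 bases before the start and in Ins2 at 100 bases before it. On either strand, 0.998% of the 33469 promoters in the table hold these letters in the same window. TATAAA, the TATA box, began 30 bases before the start in both genes and is found in 12.9% of promoters. TGACG, which is part of the cyclic AMP response element, had 1 match in Ins1, at 185 bases, and 0 in Ins2, against 18.2% of promoters. TAAT, the core bound by homeodomain proteins such as PDX1, had 6 matches in Ins1 and 4 in Ins2. It is in 57.0% of promoters, and the pair of matches at 213 and 211 bases in Ins1 overlap on opposite strands, as do those at 201 and 199 in Ins2. CCAAT had 1 match in each gene (34.02% of promoters). The matches describe letters only, since no binding was measured in these libraries.

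Total counts per library ran from 2723660 to 14222719, and the smallest count of either insulin gene was 89897. Counting error was therefore small: the widest 95% exact (Clopper-Pearson) interval of any share of counts spanned 0.0674 percentage points. Such intervals cover counting error only. Ins1 had the highest count of all genes in 16 of the 18 libraries, and rank 2 and rank 3 in the other two. Ins2 had rank 2 in 9 libraries, rank 3 in 4, rank 4 in 4 and rank 6 in 1. The insulin transcripts that define the beta cell were thus abundant in every library. Markers of other islet, acinar, ductal, stromal, endothelial and immune cells were not assessed, because no table used here pairs the other Ensembl IDs with gene names. Old replicative libraries were the least alike, with mean Spearman correlations of 0.714 to 0.783 with the others of their group over 23751 genes, against 0.841 to 0.936 in the other groups. Old replicative replicate 3 had the lowest value, and the differences of the insulin genes that rest on it are given without it too. In bulk RNA, fewer beta cells and less insulin RNA per beta cell cannot be told apart.

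Libraries of the same age and replicate number were taken as the same islet batch, which their labels do not state. In each of the 9 batches Ins1 had a smaller share of the counts in the replicative than in the quiescent library. In old islets its share of all counts was 6.53%, 6.25%, 5.81% and 6.24% in quiescent replicates 1 to 4, and 3.24%, 2.19%, 4.06% and 4.67% in replicative replicates 1 to 4. The old groups did not overlap, and the quiescent libraries lay within less than a percentage point of each other. Overlap in shares was not counted over all genes, here or for Ins2 below. In CPM, the scaled level defined below, 11.1% of tested genes were lower in old replicative cells without overlap. In young islets the share was 6.86%, 8.83%, 8.54%, 11.2% and 5.52% in quiescent replicates 1 to 5, and 5.06%, 6.99%, 6.41%, 6.83% and 3.67% in replicative replicates 1 to 5. The young groups overlapped, and batch 5 was lowest in both kinds of cell. Compared as groups, neither difference in the Ins1 share passed an exact permutation test (two-sided) after adjustment over 12 tests of shares and ratios, with adjusted p = 0.0857 in old and 0.127 in young islets. Before adjustment the exact permutation p in old islets was 0.0286, the smallest that 4 against 4 libraries allow.

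Ins2 followed Ins1 closely. In old islets its share was 4.87%, 4.94%, 5.35% and 5.48% in quiescent replicates 1 to 4, and 2.32%, 1.53%, 3.02% and 3.87% in replicative replicates 1 to 4, again without overlap. Replicative replicate 2 was the lowest library of the series for Ins2, as it was for Ins1, and replicate 4 was the highest old replicative library for both. In young islets the share of Ins2 was 3.22%, 6.09%, 5.37%, 6.25% and 2.94% in quiescent replicates 1 to 5, and 2.88%, 4.28%, 4.41%, 3.90% and 1.88% in replicative replicates 1 to 5. Young quiescent libraries thus fell into 3 of high and 2 of low Ins2, and the replicating libraries of the 2 low batches were the lowest of their group. The group differences in the Ins2 share did not pass either (exact permutation test, adjusted p = 0.0857 in old and 0.212 in young islets). In old islets the exact permutation p before adjustment was again the smallest possible, 0.0286. Without old replicative replicate 3 the mean differences in old islets were -2.84 percentage points for Ins1 and -2.59 for Ins2, against -2.67 and -2.48 with it.

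**Figure D1:**
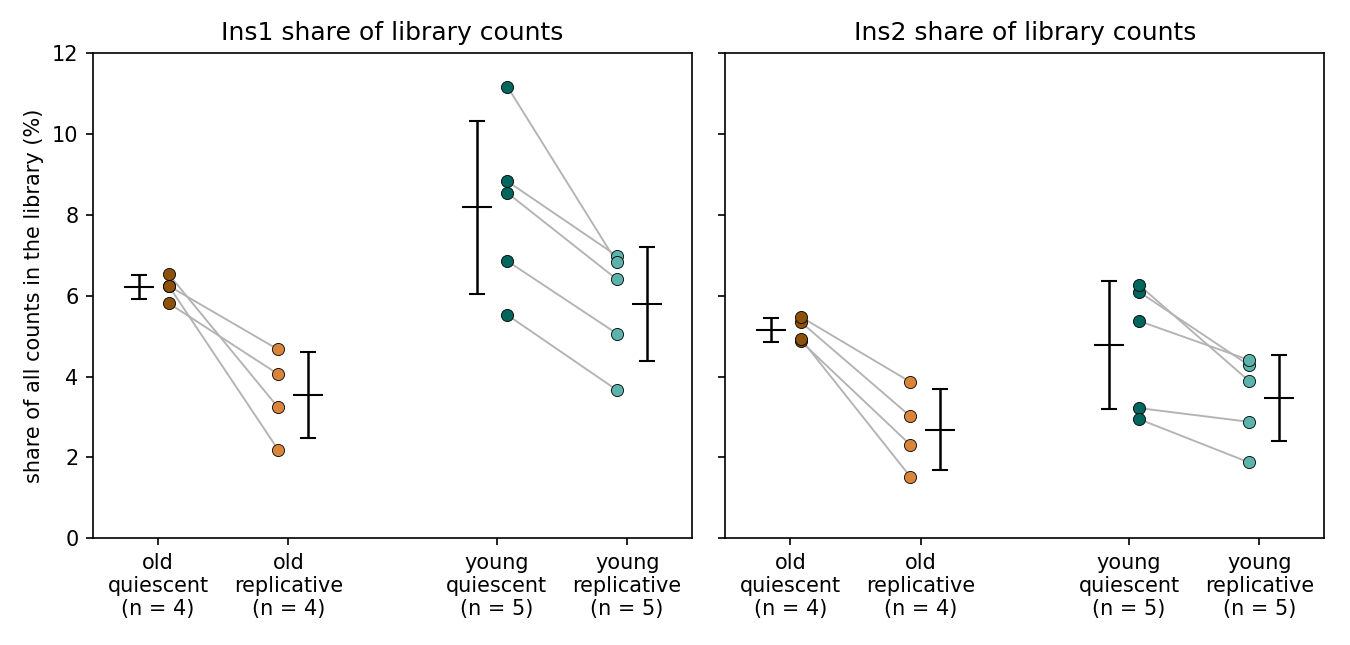
Share of all counts in each library (%) for Ins1 (left) and Ins2 (right). Points are libraries, grey lines join the quiescent and replicative library of the same age and replicate number, and black marks are means with SD (n = 4 old, n = 5 young); all 9 lines fall in each panel, from a mean of 6.21% to 3.54% for Ins1 in old islets.

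Added together, the pair made up 11.4% ± 0.259 of the counts in quiescent and 6.22% ± 2.07 in replicative cells of old islets (SD, n = 4 each). In young islets the sums were 13.0% ± 3.65 in quiescent and 9.26% ± 2.45 in replicative cells (SD, n = 5 each). The old quiescent libraries were the most alike, with totals of 11.2% to 11.7%, while young quiescent libraries ran from 8.47% to 17.4%. Between the quiescent and the replicative library of a batch, the joint share differed by factors of 2.05, 3.00, 1.58 and 1.37 in old batches 1 to 4, always lower in replicative cells. In young batches 1 to 5 the factors were 1.27, 1.32, 1.29, 1.63 and 1.53, in the same direction. Old batch 2 stood highest among the 9, and the young batches lay between 1.27 and 1.63.

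Replicating and quiescent cells were compared with edgeR's quasi-likelihood test on the counts of all 18 libraries, with Benjamini-Hochberg adjustment over the 14920 genes tested. Levels are in CPM, counts scaled to a common library size after TMM normalization. In old islets the level of Ins1 was 70300 ± 3777 CPM in quiescent and 33026 ± 11352 CPM in replicative cells (SD, n = 4 each), and its log2 change of -1.09 passed the test (SE 0.270, edgeR adjusted p = 0.0102). For Ins2 the levels were 58788 ± 8394 and 25102 ± 10464 CPM (SD, n = 4 each), and the log2 change of -1.23 passed as well (SE 0.318, edgeR adjusted p = 0.0131). Ins1 was thus 2.13-fold and Ins2 2.34-fold lower in replicating cells. Both members were thus called lower, where 6.6% of all tested genes were, and both were without overlap and lower in old replicative cells, where 11.1% of genes were. Each call was kept in all 18 fits that left out 1 library, with log2 fold changes of -1.34 to -0.94 for Ins1 and -1.55 to -1.05 for Ins2. Without old replicative replicate 3 the values were -1.19 and -1.31. Fitted on the 8 old libraries alone, without pairing by batch, neither passed the threshold (Ins1 -0.996, edgeR adjusted p = 0.0609, and Ins2 -1.13, edgeR adjusted p = 0.0615). Without the low-count filter the call of Ins2 was lost as well (-1.23, edgeR adjusted p = 0.0577).

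In young islets Ins1 stood at 86977 ± 29745 CPM in quiescent and 53769 ± 12634 CPM in replicative libraries (SD, n = 5 each). Its log2 difference was -0.69 (SE 0.240, 95% interval -1.19 to -0.20), which did not pass the threshold (edgeR adjusted p = 0.206). Ins2 stood at 50710 ± 19397 and 32127 ± 9510 CPM (SD, n = 5 each), with a log2 difference of -0.66 (SE 0.281, 95% interval -1.24 to -0.08, edgeR adjusted p = 0.447). In this comparison 0.214% of genes were called lower.

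The spread between young batches enters that test in full, and the quiescent and replicative libraries of a batch moved together. An alternative edgeR model of the same counts took the islet batch as a block. It called both genes lower in young islets, unlike the main model. The log2 difference was -0.67 for Ins1 (SE 0.131, edgeR adjusted p = 0.00684) and -0.62 for Ins2 (SE 0.140, edgeR adjusted p = 0.0194). In that model 0.556% of genes were called lower in young islets. For old islets it gave -1.16 for Ins1 (SE 0.149, edgeR adjusted p = 8.52e-05) and -1.31 for Ins2 (SE 0.159, edgeR adjusted p = 4.66e-05). There 8.42% of genes were called lower, and without old replicative replicate 3 the values were -1.26 and -1.36. With the batch as a random block in limma-voom, Ins1 passed in young islets (-0.66, limma adjusted p = 0.0366) and Ins2 did not (-0.60, limma adjusted p = 0.191). Both genes had a lower CPM in the replicative library in 4 of 4 old and 5 of 5 young batches. This held for 19.1% of tested genes in old batches, 11.3% in young batches and 5.12% in all 9. For the shares of counts, an exact sign-flip test within batches gave p = 0.0625 for each gene in young islets and p = 0.125 for each in old islets (two-sided), the smallest values that 5 and 4 batches allow.

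Other abundant genes were lower in replicating cells of old islets too. For the 50 genes whose average log2 CPM was at least 10, insulin genes included, the median log2 fold change in old islets was -0.85, against 0.01 over all tested genes, and 23 were called lower and 0 higher. Within these 50, 19 genes had a value as low as that of Ins1 or lower, and 15 as low as that of Ins2, the genes themselves included. Without old replicative replicate 3 the median of the 50 was -0.92, and 27 were called lower. In young islets the median of the 50 was -0.43, 1 was called lower, and 6 and 12 genes were as low as Ins1 and Ins2. The values of the insulin genes thus lay inside the range of other abundant transcripts.

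**Figure D2:**
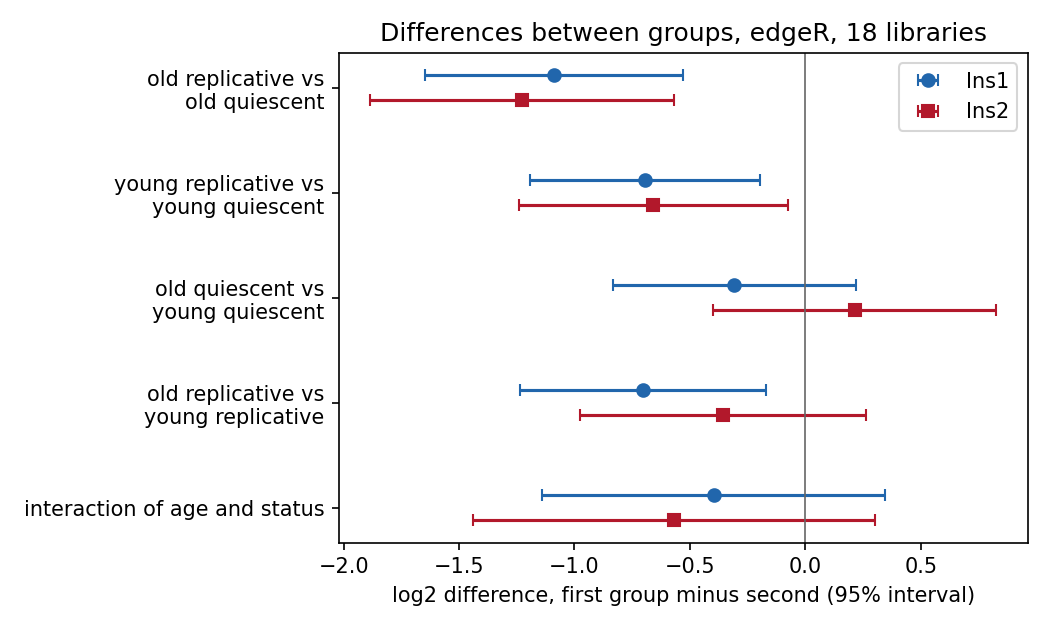
Log2 differences (x axis) of Ins1 (circles) and Ins2 (squares) for each comparison of groups and for the interaction, from the edgeR model of 18 libraries. Bars are 95% intervals before adjustment for multiple tests; the old replicative against old quiescent values, -1.09 and -1.23, lie farthest from 0.

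Whether the replication difference itself depended on age was tested by the interaction. It was -0.40 on the log2 scale for Ins1 (SE 0.359, 95% interval -1.14 to 0.35, edgeR adjusted p = 0.794) and -0.57 for Ins2 (SE 0.420, 95% interval -1.44 to 0.30, edgeR adjusted p = 0.723). The interaction was called for 0.0268% of genes. The call in old and not in young cells therefore does not show a difference between the ages. Without single libraries the interaction ran from -0.63 to -0.24 for Ins1 and from -0.88 to -0.39 for Ins2, the smallest sizes being those without old replicative replicate 2, and it was -0.48 and -0.64 without old replicative replicate 3. With the islet batch as a block the values were -0.49 for Ins1 (SE 0.197, 95% interval -0.91 to -0.07, edgeR adjusted p = 0.366) and -0.69 for Ins2 (SE 0.210, 95% interval -1.13 to -0.24, edgeR adjusted p = 0.223). In that model the intervals before adjustment lay below 0 for both genes, neither passed after adjustment over all genes, and 0.0737% of genes were called. The blocked values were -0.58 and -0.73 without old replicative replicate 3 (edgeR adjusted p = 0.254 and 0.178). With shares of counts, the change within batches averaged -2.67 percentage points in old and -2.39 in young islets for Ins1 (exact permutation test over 9 batches, two-sided, p = 0.810). For Ins2 it averaged -2.48 and -1.31 (exact permutation p = 0.0952, adjusted p = 0.143 over 3 tests). Without old batch 3 the old averages were -2.97 for Ins1 (exact permutation p = 0.571 between ages) and -2.52 for Ins2 (exact permutation p = 0.143).

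No difference with age in the level of either insulin gene passed the threshold in the edgeR model of 18 libraries without a block. Among quiescent cells, Ins1 had a log2 difference of -0.31 between old and young (SE 0.255, 95% interval -0.83 to 0.22) and Ins2 of 0.21 (SE 0.296, 95% interval -0.40 to 0.83), neither past the threshold (edgeR adjusted p = 1.00 for both, where 0.0268% of genes were called). Without single libraries these differences ran from -0.41 to -0.0983 for Ins1 and from 0.0697 to 0.40 for Ins2, and the smallest sizes were those without young quiescent replicate 4 for Ins1 and young quiescent replicate 1 for Ins2. Among replicative cells the values were -0.70 for Ins1 (SE 0.257, edgeR adjusted p = 0.0963) and -0.36 for Ins2 (SE 0.299, edgeR adjusted p = 0.526), where 7.16% of genes were called. The calls among replicative cells were 491 higher and 578 lower, and 373 and 813 with upper-quartile scaling, under which Ins1 passed (log2 difference -0.84, edgeR adjusted p = 0.0345). It also passed with the batch as a random block in limma-voom (-0.80, limma adjusted p = 0.0199) and without old replicative replicate 4 (-0.93, edgeR adjusted p = 0.0298). Without old replicative replicate 3 the values were -0.78 for Ins1 and -0.42 for Ins2 (edgeR adjusted p = 0.0979 and 0.473). Over all single libraries left out, the difference of Ins2 ran from -0.66, without old replicative replicate 4, to -0.17, without old replicative replicate 2. By mean share of counts, Ins1 was ordered young quiescent, old quiescent, young replicative, old replicative, and Ins2 old quiescent, young quiescent, young replicative, old replicative. Each pair of neighbours in these orders had overlapping ranges. The deposited log2 values of Ins1 lay between 18.64 and 18.74 in old quiescent cells, 16.98 and 18.18 in old replicative cells, 18.51 and 19.60 in young quiescent cells, and 17.87 and 18.69 in young replicative cells. Those of Ins2 lay between 18.22 and 18.60, 16.46 and 17.91, 17.60 and 18.76, and 16.91 and 18.01 in the same order of groups.

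The balance between the insulin genes separated old from young libraries. The ratio of Ins1 to Ins2 counts needs no scaling of libraries, since both counts come from the same one. It is not divided by transcript length, so it does not say which gene had more transcripts, and only its differences between libraries are read. In old quiescent replicates 1 to 4 the ratio was 1.34, 1.27, 1.09 and 1.14. In old replicative replicates 1 to 4 it was 1.40, 1.44, 1.34 and 1.21. In young quiescent replicates 1 to 5 it was 2.13, 1.45, 1.59, 1.79 and 1.88, and in young replicative replicates 1 to 5 it was 1.76, 1.63, 1.45, 1.75 and 1.95.

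Every one of the 8 old libraries had a lower ratio than every one of the 10 young libraries. The margin was narrow: old replicative replicate 2 reached 1.436 (95% counting interval 1.426 to 1.446) and young quiescent replicate 2 stood at 1.450 (1.441 to 1.459), so the counting intervals of these libraries overlap. Among all 1225 pairs of the 50 abundant genes, 9 pairs, or 0.735%, Ins1 and Ins2 among them, had ratios that did not overlap between the old and the young libraries in this way. Among quiescent libraries alone 8.33% of pairs did not overlap, and among replicative libraries alone 9.71%.

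The ratio averaged 1.21 ± 0.116 in old quiescent (SD, n = 4) and 1.77 ± 0.263 in young quiescent libraries (SD, n = 5), a difference of -0.54 in the mean log2 ratio. The exact permutation test gave p = 0.0159 (two-sided), the smallest value that 4 against 5 libraries allow. Among replicative libraries it averaged 1.35 ± 0.100 in old (SD, n = 4) and 1.71 ± 0.184 in young (SD, n = 5), a difference of -0.34 in the mean log2 ratio with the same exact p = 0.0159 (-0.34 also without old replicative replicate 3). Neither passed Benjamini-Hochberg adjustment over the 12 tests of shares and ratios (adjusted p = 0.0857 for both). The comparisons in quiescent and in replicative cells rest on the same 9 batches and are not independent of each other. Expressed as a part of all insulin reads, Ins1 made up 54.6% ± 2.37 in quiescent and 57.3% ± 1.88 in replicative cells of old islets (SD, n = 4 each). In young islets it made up 63.6% ± 3.43 and 63.0% ± 2.55 (SD, n = 5 each).

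**Figure D3:**
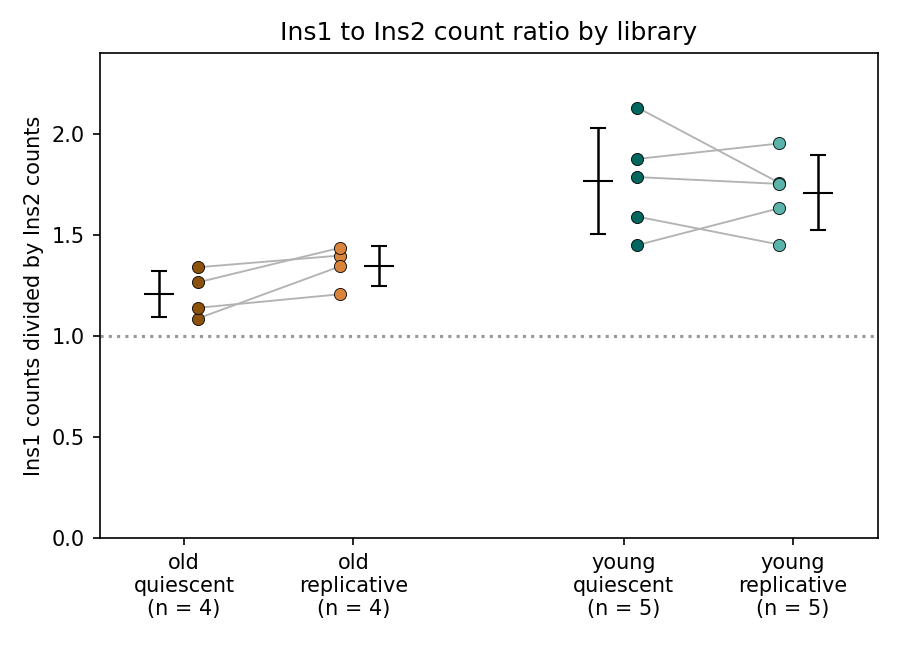
Ins1 counts divided by Ins2 counts (y axis) in each library. Points are libraries, grey lines join libraries of the same age and replicate number, black marks are means with SD, and the dotted line marks equal counts; all old libraries lie at or below 1.44 and all young ones at or above 1.45.

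Between replicating and quiescent cells the ratio was compared within batches. In old islets it was higher in the replicative library of 4 of 4 batches, with a mean log2 difference of 0.16 ± 0.11 (SD, n = 4 batches). How many other gene pairs changed in the same direction in every batch was not counted. The exact sign-flip test gave p = 0.125, the smallest that 4 batches allow. Without old batch 3 the mean difference was 0.11, higher in 3 of 3 batches. In young islets it was higher in 2 batches and lower in 3, with a mean log2 difference of -0.04 ± 0.17 (SD, n = 5 batches; exact sign-flip p = 0.688). The difference between the ages in this within-batch change was 0.20 on the log2 scale (exact permutation p = 0.0635, adjusted p = 0.143 over 3 tests), and 0.15 without old batch 3 (exact permutation p = 0.143). Neither the replication differences in the ratio nor their difference between ages passed a threshold.

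**Figure D4:**
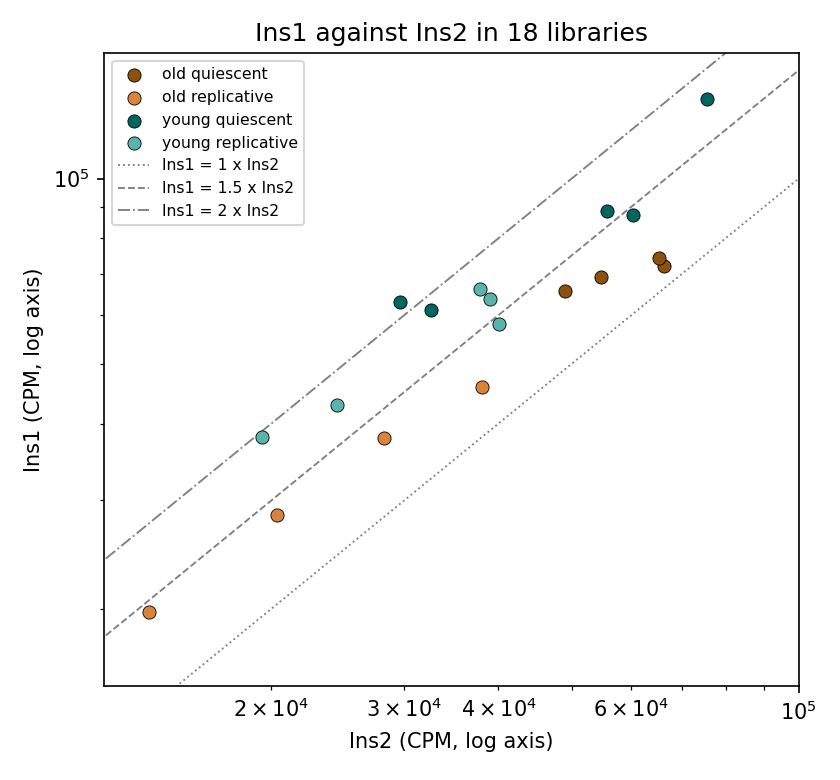
Ins1 against Ins2 in CPM, both axes logarithmic, with 1 point per library and lines where Ins1 equals 1, 1.5 and 2 times Ins2. The 8 old libraries lie between the lines for 1 and 1.5, at ratios of 1.09 to 1.44. The 10 young libraries range from 1.45 to 2.13, from just below the line for 1.5 to above that for 2.

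Reads of Ins1 and Ins2 can be hard to assign, because the genes are similar in their coding parts. How the counting treated reads that fit both genes is not stated in the labels or files, and its part in the ratio was not tested. Old libraries held 2975086 to 10365264 counts and young ones 2723660 to 14222719, and whether the ratio depends on total counts was not tested.

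Across the 18 libraries, log2 CPM of Ins1 and Ins2 had a Pearson r of 0.916, and of 0.962 after group means were subtracted. Libraries share batches, so these values are descriptions. The genes most like the mean of the pair, among 3078 others with an average log2 CPM of at least 6, were ENSRNOG00000010784 (Pearson r = 0.939) and ENSRNOG00000005763 (r = 0.927), over 18 libraries. Because they were picked for following the pair over these libraries, their values are given without a test: log2 differences between replicative and quiescent cells of -1.22 and -1.38 in old islets, and of -0.42 and -0.64 in young islets. After group means were subtracted, the genes most like the pair were ENSRNOG00000052549 (r = 0.906) and ENSRNOG00000000304 (r = 0.906). Their log2 differences were -0.91 and -0.82 in old and 0.01 and 0.11 in young islets. The least like over the 18 libraries were ENSRNOG00000030118 (r = -0.866) and ENSRNOG00000012148 (r = -0.844). Their log2 differences were 3.38 and 0.22 in old islets and 1.30 and 0.16 in young islets. The gene names behind these IDs are not given in the tables used here.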

How the data were processed

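RNA from sorted cells was extracted with a kit for fixed tissue and made into stranded total RNA libraries, per the labels' protocols. The authors deposited raw counts of reads, as whole numbers, for each Ensembl rat gene ID. STAR, DESeq2 and build rn6 stand in the submitters' processing notes without role or version. Neither the counting program nor its treatment of shared reads is stated there. The authors' second table holds log2 values. Recomputing showed log2 of the count over a median-of-ratios size factor, plus 1 (largest difference 5.3e-14 over 27654 genes).

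The count tests used edgeR 4.0.16 in R 4.3.3: filterByExpr (minimum count 10, total 15; 14920 genes kept, 12734 removed), TMM scaling, 1 model of 4 group means over 18 libraries, robust quasi-likelihood F tests and a threshold of 0.05 on adjusted p. SE is the log2 fold change over the square root of F. The script was tested on simulated data. Replicate numbers were assumed to pair the quiescent and replicative libraries within each age. Deviations from group means over 3080 genes correlated with r = 0.161 to 0.567 for every same-numbered pair, and the series text states that each batch gave both samples. Shares and log2 ratios were compared by exact permutation tests in scipy 1.17.1, adjusted over 12 tests. Promoters were aligned with Biopython 1.88. Alternatives were RLE and upper-quartile factors, TMM without the 10 most abundant other genes, other filters, DESeq2 1.42.0, limma 3.58.1, fits of 2 groups, batch blocks, another denominator for shares, and each library left out.

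The rule for named genes took Ins1 and Ins2, and the genes most like their mean by Pearson r of log2 CPM (prior count 2), printed as at most 2 IDs because names were lacking. The 14 gene lists drawn up (119 symbols) could not be run, since 0 of the 27654 IDs matched a symbol. The members, lists and tests were chosen with earlier results of these data known. In models without a block and in permutation tests between groups, p-values measure the spread between libraries of pooled rats. Those tests did not use the pairing of libraries within a batch. With the fixed block and in tests on within-batch changes, p-values measure how the difference within a batch varied between batches.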

Additional observations from a re-analysis of the deposited data

How the results depend on the processing

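Of 110 values of the Ins1 and Ins2 differences and interactions under other settings, 98 kept their direction and side of the threshold and 0 changed sign. Calls in old islets were lost in the fit of 2 groups (Ins1 -0.996, Ins2 -1.13) and, for Ins2, without a low-count filter (-1.23, adjusted p = 0.0577). Over all settings other than single libraries left out, the fit of 2 groups included, the adjusted p in old islets ran from 8.52e-05 to 0.0609 for Ins1 and from 4.66e-05 to 0.0615 for Ins2. Calls in young islets were gained with the fixed replicate block (Ins1 -0.67, Ins2 -0.62; also -0.67 and -0.63 without old replicative replicate 3, a setting chosen after seeing the data), with a random block in limma-voom (Ins1 -0.66, adjusted p = 0.0366) and with sample quality weights (Ins1 -0.63, Ins2 -0.60, adjusted p = 0.00255 and 0.0274). Ins1 in replicative cells passed between ages with upper-quartile factors (-0.84) and a random block (-0.80, adjusted p = 0.0199). The block changed no other call of a member. Without single libraries the latter difference of Ins1 ran from -0.93 to -0.54. Relative to TMM, RLE factors moved the median of all genes by 0.13 and upper-quartile factors by -0.11 in old islets. Changes are best read against those shifts. With the deposited log2 values the median moved by -0.36, but the insulin genes did not move with it. Ins1 stood at -1.03 and Ins2 at -1.18 there, against -1.09 and -1.23 in the main fit.

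Counts of called genes, the background for the members, moved more. In fits of 2 groups they were 540 (replication, old), 786 (replication, young), 258 (age, quiescent) and 62 (age, replicative), against 2053, 368, 4 and 1069. DESeq2 gave 3183, 604, 67 and 2251, and 296 for the interaction, against 4. Quality weights gave 1055, 2952, 1589, 231 and 2. The random block gave 3684 (replication, old), 1730 (age, replicative) and 165 (interaction), and the fixed block 11 for the interaction, or 33, with 661 for replication in young islets, without old replicative replicate 3. Without a filter, age in quiescent cells gave 8 and the interaction 1, which was 15 with a filter of 1 CPM and 1 with the deposited log2 values. Age in quiescent cells gave 3 genes higher and 1 lower, and 3 and 2 with upper-quartile factors. Without single libraries the counts ran from 1134 to 2916 (replication, old), 0 to 14 (age, quiescent), 644 to 2211 (age, replicative) and 0 to 231 (interaction). The cause of these moves was not tested.

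Shares and ratios kept their direction in all 21 values under other settings. Without single libraries, the Ins2 share between ages in quiescent cells ran from -0.0732 to 0.754 percentage points, changing sign without young quiescent replicate 1 or 5. The young replication difference in log2 ratio ran from -0.110 to 0.0292, changing sign without young quiescent replicate 1 or young replicative replicate 3. The age difference in log2 ratio ran from -0.61 to -0.47 in quiescent and from -0.40 to -0.29 in replicative cells. At this depth the widest counting interval of a share, 0.0674 percentage points, was below the smallest SD within a group, 0.296 (Ins1, old quiescent).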
